A study of Mus musculus with 12 samples.

Results

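The comparison of EuMyc Max KO with EuMyc B220+ splenocytes describes what differs with loss of Max in premalignant B cells that carry a Myc transgene. It rests on 6 of the 12 libraries, chosen by their genotype labels: 3 of genotype EuMyc Max WT, called EuMyc here, and 3 of genotype EuMyc Max KO. Each library holds RNA of B220+ spleen cells from 1 mouse aged 4 to 5 weeks. Both groups carry EuMyc, in which an enhancer of the immunoglobulin heavy chain locus directs Myc expression to the B lineage, so no comparison between them shows the transgene's own effect. The other 6 libraries, 3 of genotype Max WT (called WT here) and 3 of genotype Max KO, lack the transgene and serve as a second background for the loss of Max. The series calls the knockout conditional, but the sources used here do not give the Cre driver, the floxed exons or the sex of the mice. Of 24421 gene symbols, 12878 passed the filter on low counts and were tested. Values per gene are counts scaled to a common library size (CPM), out of the reads assigned to genes in a library, scaled by edgeR's TMM factors.

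MYC is a transcription factor that binds DNA as a dimer with MAX, at E-boxes with the core CACGTG. MYC-MAX dimers are best known for raising genes of ribosome production, nucleotide synthesis, mitochondria and cell division, and MYC can also act with other proteins at promoters where genes fall. MAX has other partners: the MXD proteins and MNT, which oppose MYC at the same sites, and MGA, which with MAX, E2F6, PCGF6 and L3MBTL2 forms the repressive complex PRC1.6 that keeps germline genes silent. Loss of MAX therefore removes the partner of the activators and of the repressors at once. In the B lineage, MYC is known for large, dividing pro-B and pre-B cells and for activated B cells, while resting follicular and marginal zone B cells carry little of it. EuMyc mice accumulate cycling, immature B cells before lymphoma appears.

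Promoters of 5 genes that the results turn on are shown because they hold the E-box that MAX dimers bind and stand for different responses. Cdk4, a G1 kinase, and Ldha, lactate dehydrogenase, are classical MYC targets. Stag3 encodes a meiotic cohesin subunit, Mnt a MAX partner and Tef a clock output factor. The sequences are from RefSeq on GRCm38.p6, plus strand, 5′ to 3′, from 250 bases before to 50 after the annotated start, and capitals mark each CACGTG, which reads the same on both strands. The windows are chr10:127063285-127063584 for Cdk4, chr7:46845554-46845853 for Ldha, chr5:138280259-138280558 for Stag3, chr11:74830674-74830973 for Mnt and chr15:81802423-81802722 for Tef.
Cdk4: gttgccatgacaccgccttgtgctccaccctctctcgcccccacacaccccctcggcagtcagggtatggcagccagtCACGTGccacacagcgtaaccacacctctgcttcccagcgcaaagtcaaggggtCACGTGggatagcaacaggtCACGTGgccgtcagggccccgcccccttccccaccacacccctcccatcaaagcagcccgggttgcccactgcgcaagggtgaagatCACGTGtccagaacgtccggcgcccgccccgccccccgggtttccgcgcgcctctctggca
Ldha: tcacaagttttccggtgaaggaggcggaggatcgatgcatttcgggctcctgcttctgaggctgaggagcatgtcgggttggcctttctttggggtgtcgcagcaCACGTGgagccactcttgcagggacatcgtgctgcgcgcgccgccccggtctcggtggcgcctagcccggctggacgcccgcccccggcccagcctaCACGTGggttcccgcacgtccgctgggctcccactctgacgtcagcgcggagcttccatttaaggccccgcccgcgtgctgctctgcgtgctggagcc
Stag3: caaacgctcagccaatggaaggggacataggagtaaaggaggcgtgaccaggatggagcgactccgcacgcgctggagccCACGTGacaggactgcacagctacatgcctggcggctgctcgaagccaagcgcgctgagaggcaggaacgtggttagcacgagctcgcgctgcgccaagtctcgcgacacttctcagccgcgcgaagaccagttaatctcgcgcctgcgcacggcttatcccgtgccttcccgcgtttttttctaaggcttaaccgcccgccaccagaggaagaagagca
Mnt: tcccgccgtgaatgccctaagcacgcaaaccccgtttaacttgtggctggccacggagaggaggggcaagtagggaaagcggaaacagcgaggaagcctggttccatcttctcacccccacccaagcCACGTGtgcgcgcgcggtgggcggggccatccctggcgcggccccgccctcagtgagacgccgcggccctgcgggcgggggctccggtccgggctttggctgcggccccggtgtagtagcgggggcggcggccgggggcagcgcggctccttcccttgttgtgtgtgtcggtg
Tef: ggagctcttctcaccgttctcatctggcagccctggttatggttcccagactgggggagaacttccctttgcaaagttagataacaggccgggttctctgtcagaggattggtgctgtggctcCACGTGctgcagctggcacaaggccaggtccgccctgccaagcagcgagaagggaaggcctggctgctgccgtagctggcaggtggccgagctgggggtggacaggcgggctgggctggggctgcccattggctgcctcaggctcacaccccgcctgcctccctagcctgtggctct
The first base of the E-boxes lay 172, 118, 98 and 11 bases upstream of the start in Cdk4 and 145 and 48 bases upstream in Ldha. Stag3, Mnt and Tef each held 1, which began 170, 123 and 127 bases upstream. These distances are to RefSeq starts. The GENCODE start of Stag3, given with its levels, lies before its whole window. Cdk4 and Ldha fell in EuMyc Max KO cells, while Stag3, Mnt and Tef rose, as described with their groups. A match is a description of these letters and not evidence of binding.

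Reads assigned to genes numbered 20221681 to 21671601 per EuMyc library and 17890935 to 18668193 per EuMyc Max KO library. EuMyc Max KO replicate 3 stood apart from replicates 1 and 2 of its group. Replicates 1 and 3 stood 0.567 apart as the root mean square of log2 differences, replicates 2 and 3 stood 0.455 apart and replicates 1 and 2 stood 0.313 apart, against 0.271 to 0.322 in EuMyc, 0.321 to 0.355 in WT and 0.305 to 0.383 in Max KO. Xist, the RNA of the inactive X chromosome, was at 0.435, 0.691 and 0.731 CPM in EuMyc against 1133, 1314 and 0.78 in EuMyc Max KO. The Y-linked gene Ddx3y, named after its values were seen, was at 118, 94.7 and 91.4 and 0.703, 0.0548 and 138 CPM. EuMyc Max KO replicates 1 and 2 therefore differ from replicate 3 and from all EuMyc libraries in these sex-linked transcripts. For these 2 libraries that difference cannot be told apart from genotype in any gene. The same 2 libraries also held the most erythroid RNA: the summed level of 22 erythroid genes was 1153, 942 and 1101 CPM in EuMyc and 9909, 6691 and 1824 CPM in EuMyc Max KO, against 196 to 531 in WT. Counts were therefore also made with replicate 3 as the only EuMyc Max KO library, an alternative chosen after seeing the data, in which its spread is assumed to be that of the other groups.

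Most of the transcriptome differed between EuMyc Max KO and EuMyc B220+ cells. The groups also differed in sex-linked transcripts and erythroid RNA, and the part of these in the calls was not tested. Of 12878 genes, 9494 (73.7%) were called by edgeR's quasi-likelihood test at a Benjamini-Hochberg adjusted p under 0.05, of which 4845 (37.6% of those tested) were higher and 4649 (36.1%) were lower in EuMyc Max KO. More than 2-fold, 20.5% of the tested genes were called higher, and 1540 genes were called lower. The rises were the larger changes: 1309 called genes rose and 363 fell by more than 4-fold. The 3 libraries of each group did not overlap for 75.9% of the genes. With such a background, a single gene's call says little by itself, and every count of a gene group is to be read against these shares. CPM is a share of each library's reads, so fewer cells of a type and less RNA per cell cannot be told apart in these bulk samples, nor can a change in total RNA per cell be seen. With replicate 3 as the only EuMyc Max KO library, the median log2 fold change of all genes was 0.004. That fit shares replicate 3 and all EuMyc libraries with the main fit, so it is no separate test of it. With library totals in place of TMM, the median log2 fold change of all genes moved from 0.03 to 0.15.

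**Figure D1:**
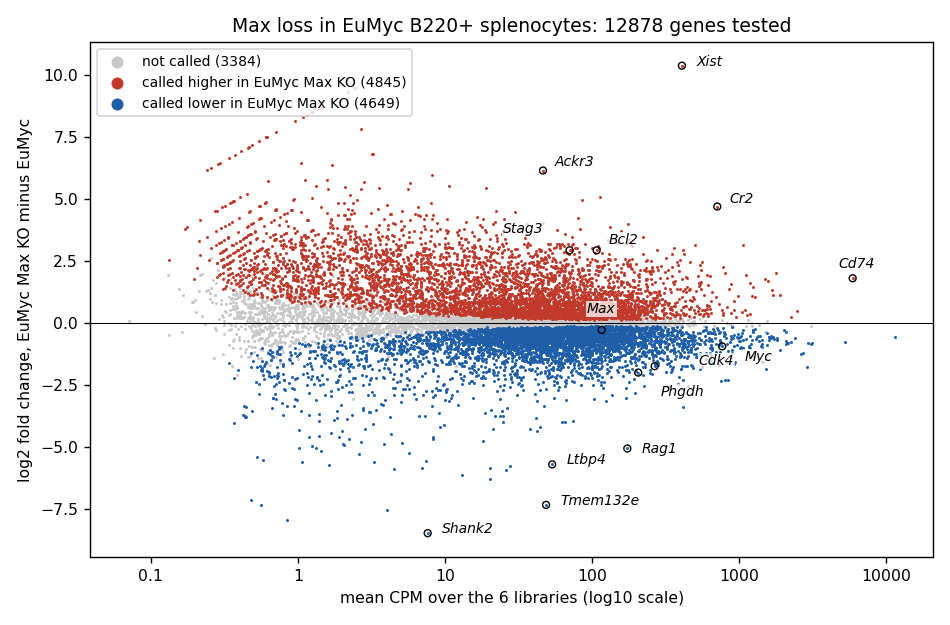
Mean CPM over the 6 EuMyc and EuMyc Max KO libraries (log10 axis) against the log2 fold change of EuMyc Max KO over EuMyc for the 12878 genes tested, coloured by call at an adjusted p under 0.05 (4845 higher, 4649 lower). Points reach further above 0 than below it, with 1309 genes more than 4-fold higher and 363 more than 4-fold lower, and the labelled genes are described in the text.

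Max itself (chr12:76937269-76962201, mm10, minus strand) was at 126, 127 and 130.0 CPM in EuMyc and 108, 104 and 102 CPM in EuMyc Max KO, a log2 fold change of -0.29 (SE 0.0781, edgeR adjusted p = 0.00462). The groups did not overlap, but the difference was small. Counts per gene include transcripts that lack a deleted exon, so the level of Max is no measure of deletion. The reads of Myc (chr15:61985391-61990374, plus strand), transgenic and endogenous together, came to 975, 1049 and 1007 CPM in EuMyc and 514, 565 and 487 CPM in EuMyc Max KO, -0.95 on the log2 scale (SE 0.0802). They stayed 2.31 log2 units above WT, whose libraries were at 115, 96 and 106 CPM.

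Among the partners of MAX and MLX, the members that moved did so in both directions. Of 13 network genes 11 were tested, and 4 rose and 3 fell, which is near the background shares. Mnt, a constant antagonist of MYC in many cells, rose from 65.2, 65.3 and 75.5 to 102, 96.1 and 118 CPM (0.62, SE 0.0891, edgeR adjusted p = 3.61e-05). Mga, the scaffold of PRC1.6, rose from 195, 193 and 192 to 273, 329.8 and 380.4 CPM (0.76, SE 0.111, edgeR adjusted p = 4.42e-05). Both also rose without the transgene, by 0.73 and 0.80 log2 units in Max KO against WT. Mycl, a MYC paralogue of dendritic cells, rose from 0.58, 0.532 and 0.627 to 5.52, 6.58 and 3.64 CPM, and Mxd4, an antagonist of resting cells, fell by 0.45 on the log2 scale from 84.6, 78.7 and 82.4 to 58.6, 62.8 and 58.6 CPM. Mxd1, an antagonist induced as blood cells differentiate, was at 33.3, 27.3 and 29.9 CPM in EuMyc and 133, 89.4 and 34.9 CPM in EuMyc Max KO. Its rise was 1.51 (SE 0.379, edgeR adjusted p = 0.005), and with replicate 3 alone it was 0.19. The 3 libraries ranked in the order of their erythroid levels and also of their macrophage levels. The part of other cells in this was not tested. Mxi1 at 68.9, 74.9 and 76.3 CPM in EuMyc and 71.4, 51 and 32.9 CPM in EuMyc Max KO and Mxd3 at 30.5, 35.5 and 33.2 CPM in EuMyc and 26.2, 16.6 and 5.51 CPM in EuMyc Max KO did not pass the test (edgeR adjusted p = 0.0544 and 0.0507), and without EuMyc Max KO replicate 1 both passed it as lower (-0.81 and -1.58). Mlx (0.05) and Mlxip (-0.06) did not pass it either (edgeR adjusted p = 0.557 and 0.491).

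MYC target genes and the machinery that makes protein were lower. Of 71 MYC target genes 65 fell and none rose, 43 of them more than 2-fold, with a median log2 fold change of -1.15 against 0.03 over all genes. Their summed level was 21440.0, 23650.0 and 22090.0 CPM in EuMyc against 9291, 9222 and 9050.0 in EuMyc Max KO, beside 7991 to 9132 in WT. The EuMyc Max KO libraries thus lay near the WT range, at less than the level of every EuMyc library. Pa2g4, a regulator of ribosome assembly and growth, fell from 607, 653 and 643 to 173, 177 and 176 CPM (-1.85, SE 0.0617, edgeR adjusted p = 2.91e-10). Ncl, the nucleolar protein nucleolin, fell from 2122, 2272 and 2015 to 666, 712 and 739.7 CPM (-1.6, SE 0.0735). The 6 targets that did not pass the test were Odc1, Rrp12, Ipo4, Dusp2, Tert and Tfrc, named after their values were seen. Odc1, the first enzyme of polyamine synthesis and a classical MYC target, was at 384, 455 and 419.7 CPM in EuMyc and 504, 404 and 299.6 CPM in EuMyc Max KO, with a log2 fold change of -0.06 (SE 0.144, edgeR adjusted p = 0.722). Its 3 EuMyc Max KO libraries spanned the EuMyc range in the order of their erythroid levels, and with replicate 3 alone it was lower by 0.50 (edgeR adjusted p = 0.000525). The part of erythroid RNA in this was not tested.

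Ribosome biogenesis genes fell almost as a block: 97 of 100 were lower and none higher, with a median of -0.86. Nolc1, a nucleolar chaperone of Pol I transcription, went from 423, 463 and 412 to 128, 138 and 133 CPM (-1.7, SE 0.0701). Of 79 cytosolic ribosomal protein genes 76 fell, by a smaller median of -0.64, and 6 fell more than 2-fold. Rpl28, the member with the smallest p, went from 1193, 1235 and 1346 to 499, 532 and 593 CPM (-1.22). These genes have many near-identical copies, and reads that aligned to several places were counted for no gene, so their counts miss such reads. Of 78 mitochondrial ribosomal protein genes 77 fell (median -0.91), with Mrpl12 from 149, 163 and 159 to 47.1, 45.3 and 47.5 CPM (-1.75). Of 34 RNA polymerase I and III subunits 27 fell, including Polr1b (-1.26), the second-largest subunit of polymerase I. Translation factors (39 of 43 lower and 1 higher), aminoacyl tRNA synthetases (33 of 39 lower and 2 higher) and splicing genes (51 of 53 lower and none higher) moved the same way. Among them Eif3b, an initiation factor subunit, fell by 1.31, Kars, the lysine tRNA synthetase, by 1.31 and Snrpd1, a core protein of the spliceosome, by 1.95 on the log2 scale. Without EuMyc Max KO replicates 1 and 2, 65 of 71 MYC targets and 89 of 100 ribosome biogenesis genes were lower, with medians of -1.21 and -0.81.

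**Figure D2:**
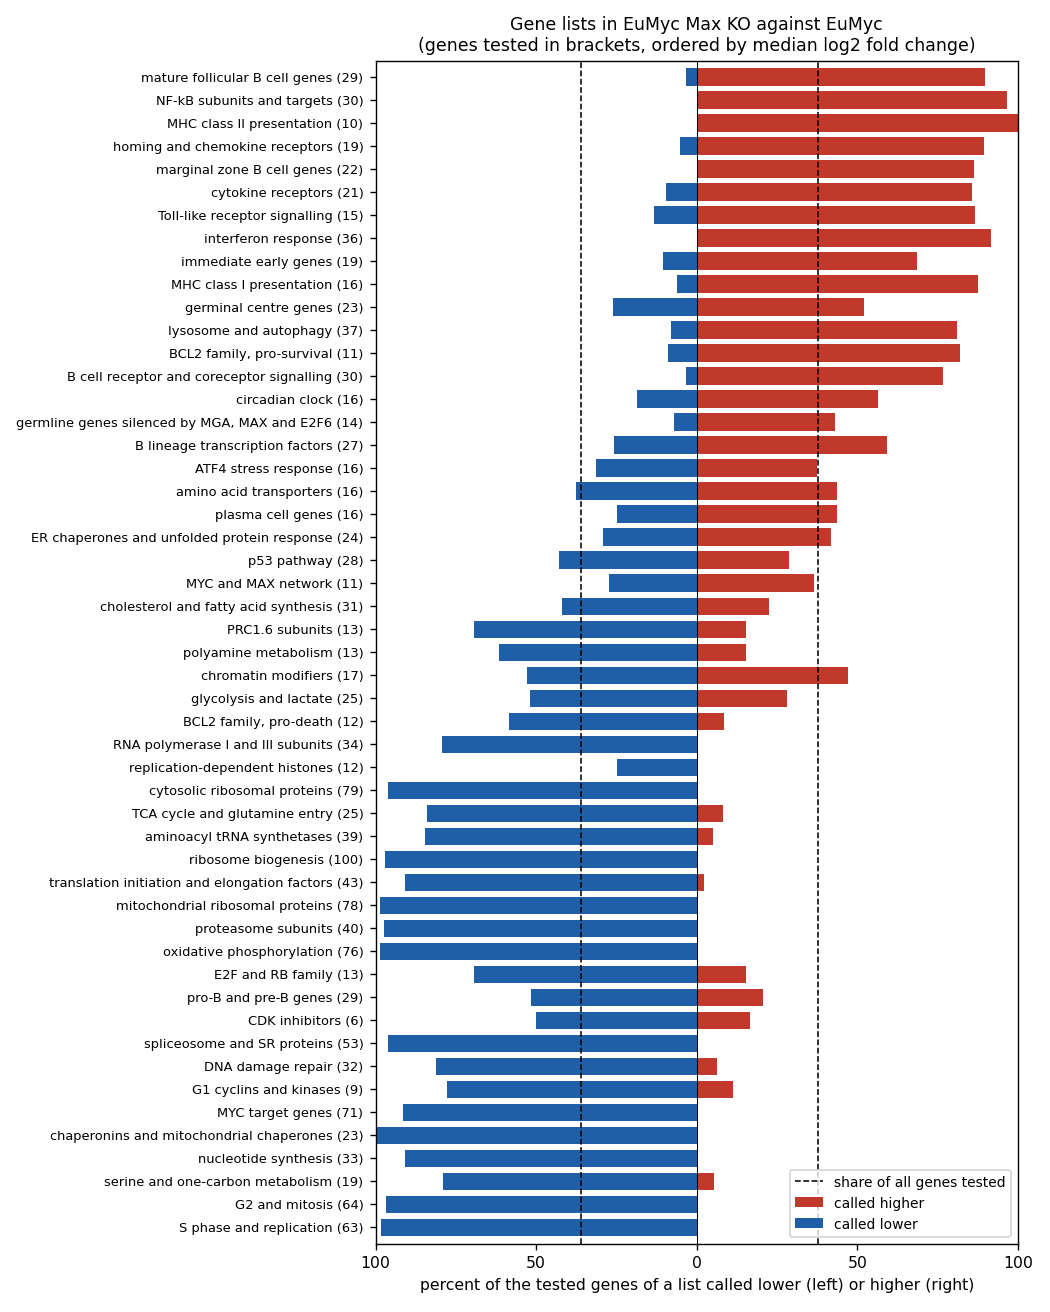
Share of the tested members of 51 gene lists that were called lower (bars to the left) or higher (bars to the right) in EuMyc Max KO than in EuMyc, in percent, ordered by the list's median log2 fold change, with dashed lines at the shares of all genes called lower (36.1%) and higher (37.6%). Growth, mitochondrial and cell cycle lists reach far past the lower line, and mature B cell, NF-kB, MHC and interferon lists far past the higher line.

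Biosynthetic metabolism fell with them. Of 33 genes of nucleotide synthesis 30 fell and none rose (median -1.28), among them Ctps, which makes CTP, from 156, 166 and 147 to 40.5, 42.5 and 44.1 CPM (-1.88, SE 0.0741). Of 19 tested genes of serine and one-carbon metabolism 15 fell and 1 rose (median -1.54). Phgdh (chr3:98313170-98339990, minus strand), which opens serine synthesis, fell from 315, 343 and 333 to 81.4, 80.7 and 83.9 CPM (-2.01, SE 0.0493, edgeR adjusted p = 5.07e-11). Its libraries were tight in both groups, and WT lay at 72.8, 71 and 74.6 CPM. Psat1, the next enzyme of that route, fell by 2.16 and Shmt2, the mitochondrial serine hydroxymethyltransferase, by 1.78 on the log2 scale. In polyamine metabolism 8 of 13 tested genes fell and 2 rose. Srm, spermidine synthase, fell from 159, 186 and 178 to 45.9, 47.4 and 48.9 CPM (-1.88), and Sat1, which breaks polyamines down, rose from 79.4, 70.9 and 69.3 to 174, 139.5 and 126 CPM (1.0). Ldha fell from 912, 1034 and 975 to 319, 295 and 309 CPM (-1.66) within a glycolysis list in which 13 of 25 genes fell and 7 rose.

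Mitochondrial and proteasome genes were lower as whole lists, and lysosomal genes were higher. Of 76 genes of oxidative phosphorylation 75 fell (median -0.93), with Cycs, cytochrome c, from 169, 170.1 and 168 to 58.3, 59.2 and 64.1 CPM (-1.48). All 23 chaperonin and mitochondrial chaperone genes fell (median -1.2), with Hspd1, the mitochondrial chaperonin, from 802, 945 and 789 to 227, 238 and 233 CPM (-1.86). Of 40 proteasome genes 39 fell (median -0.91), including the activator Psme4 (-1.74). Of 37 genes of lysosome and autophagy 30 rose and 3 fell (median 0.78). Ctss, a lysosomal protease that prepares antigen for MHC class II, rose from 143, 135 and 168 to 643, 628 and 610.3 CPM (2.08, SE 0.0814, edgeR adjusted p = 5.46e-10), and Atp6v0a1, a proton pump subunit, rose from 30.2, 27.8 and 28.1 to 119.9, 121 and 98.6 CPM (1.98). Monocyte and macrophage transcripts, which are rich in lysosomal genes, were also higher, at a summed 1874, 1631 and 1558 CPM in EuMyc against 9592, 7031 and 5186 in EuMyc Max KO. Their part in the lysosomal change was not tested.

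Genes of the dividing cell fell in all 3 libraries, but to different depths. Of 63 genes of S phase and replication 62 fell and none rose (median -1.66), and of 64 genes of G2 and mitosis 62 fell and none rose (median -1.62). The summed level of the G2 and mitosis genes was 13160.0, 14840.0 and 13190.0 CPM in EuMyc, 6503, 4840.0 and 2593 in EuMyc Max KO and 1609 to 1705 in WT. The EuMyc Max KO libraries ranked in the order of their erythroid levels, and none came down to the WT range. Dividing erythroid precursors also carry these genes, and their part in this order was not tested. With replicate 3 as the only EuMyc Max KO library the G2 and mitosis median was -2.56, with 64 of 64 lower, and the S phase median was -2.01, with 63 of 63 lower. Some single genes were even across the 3 libraries: Hells, a chromatin remodeller of replicating cells, was at 197, 222 and 173 CPM in EuMyc and 35.3, 33.8 and 34.7 CPM in EuMyc Max KO (-2.51, SE 0.105, edgeR adjusted p = 8.5e-10). Cdca7, a MYC-responsive gene of the same remodeller, fell from 279, 340.1 and 285 to 41.6, 36.7 and 33.5 CPM (-3.02). The mitotic checkpoint gene Mad2l1 was at 109.8, 119 and 110.3 CPM in EuMyc and 44.2, 37.9 and 29.5 CPM in EuMyc Max KO (-1.61), and Cks1b, which binds the kinases of the cell cycle, at 104, 113 and 111 CPM in EuMyc and 26.4, 21.9 and 15.4 CPM in EuMyc Max KO (-2.37).

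At the entry into the cycle, G1 genes fell with 1 exception. Of 9 G1 cyclins and kinases 7 fell and 1 rose. Cdk4 (chr10:127063534-127067920, plus strand), whose promoter holds 4 E-boxes, fell from 382, 438 and 412 to 125, 121 and 119 CPM (-1.75, SE 0.0586, edgeR adjusted p = 2.91e-10). Ccnd2, the D cyclin that resting B cells raise on activation, rose from 55.3, 42.6 and 61.3 to 219.8, 216 and 216 CPM (2.03, SE 0.108, edgeR adjusted p = 6.29e-09). It also rose without the transgene, from 116, 106 and 109 CPM in WT to 219, 192 and 191 in Max KO. CDK inhibitors did not rise as a group: 3 of 6 tested fell and 1 rose. Cdkn2a, which encodes p16 and ARF, was at 7.59, 9.62 and 6.53 CPM in EuMyc and 0.433, 0.877 and 1.77 CPM in EuMyc Max KO, and Cdkn1c, which encodes p57, at 3.77, 4.15 and 3.81 CPM in EuMyc and 0.162, 0.164 and 0.052 CPM in EuMyc Max KO, both called lower (edgeR adjusted p = 4.25e-05 and 1.83e-07). Cdkn2c, which encodes p18, was at 78.1, 97.4 and 77.4 CPM in EuMyc and 52.4, 36.2 and 19.2 CPM in EuMyc Max KO and was also called lower. Cdkn1b, which encodes p27, was at 101, 93.6 and 85.8 CPM in EuMyc and 135, 120.4 and 96.7 CPM in EuMyc Max KO. It was called higher by 0.33 (edgeR adjusted p = 0.0125), which was lost without EuMyc replicate 3 (edgeR adjusted p = 0.0537) or without EuMyc Max KO replicate 1 (edgeR adjusted p = 0.0554). Cdkn1a, which encodes p21, did not pass the test at 5.08, 8.45 and 4.13 CPM in EuMyc and 4.17, 3.45 and 2.76 CPM in EuMyc Max KO, though it passed as lower without EuMyc replicate 3 (edgeR adjusted p = 0.0384). Within the RB family, Rbl1, of cycling cells, fell by 1.13 and Rbl2, of resting cells, rose by 0.64 on the log2 scale. The Polycomb methyltransferases showed the same exchange, with Ezh2 at 319, 353 and 293 CPM in EuMyc and 79.6, 68.6 and 51.6 CPM in EuMyc Max KO and Ezh1 at 55.2, 51.7 and 60 CPM in EuMyc and 113, 109 and 105 CPM in EuMyc Max KO.

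Most DNA repair genes fell, and p53 pathway genes divided. Of 32 repair genes 26 fell and 2 rose (median -1.05). The end-joining genes Xrcc6, which encodes Ku70, and Lig4, which encodes DNA ligase IV, fell by 2.16 and 2.35 on the log2 scale, with Lig4 at 95.7, 98.5 and 83.4 CPM in EuMyc and 18.7, 16.8 and 19.1 CPM in EuMyc Max KO. Trp53, which encodes p53, fell from 226, 238 and 256 to 122, 133 and 125 CPM (-0.92), and of 28 tested p53 pathway genes 12 fell and 8 rose, near the background shares. Sesn1, a sestrin that p53 and FOXO factors raise, went up from 74.7, 66.3 and 74.4 to 149, 166 and 165 CPM (1.15).

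Genes that protect from cell death rose and several that promote it fell. Of 11 pro-survival genes 9 rose, 1 fell and 1 did not pass the test. Bcl2 (chr1:106538178-106714274, minus strand), the founding survival gene of B cells, was at 24.2, 24.7 and 26.5 CPM in EuMyc and 169, 185 and 215 CPM in EuMyc Max KO, a rise of 2.92 (SE 0.101, edgeR adjusted p = 3.01e-10). WT libraries held 150.1, 172 and 176 CPM, within or just below the EuMyc Max KO range. Bcl2a1b and Bcl2a1d, near-identical copies of A1, rose by 3.39 and 3.5 on the log2 scale. Reads that aligned to several places were counted for no gene, so these values rest on reads placed at a single copy. Mcl1, a short-lived survival protein that B cells need, rose from 593, 484 and 561 to 890.4, 914 and 963 CPM (0.76). The 1 pro-survival gene that fell was Birc5, which also serves the mitotic spindle, and Bcl2l1 did not pass the test, both named after their values were seen. Of 12 tested pro-death genes 7 fell and 1 rose. Bmf, a BH3-only protein that binds BCL2, fell from 96.1, 96 and 119.7 to 42.4, 41.2 and 40.5 CPM (-1.33, SE 0.109, edgeR adjusted p = 1.89e-07), with Max KO at 43.1, 34.1 and 43.6 CPM against 93.1, 82.6 and 79.5 in WT. The 1 that rose was Bid, which links death receptors to mitochondria, by 0.57 on the log2 scale. Bcl2l11, which encodes BIM, was at 76.1, 74.1 and 69.3 CPM in EuMyc and 66.1, 69.2 and 74.5 CPM in EuMyc Max KO and did not pass the test (-0.06, SE 0.0773, edgeR adjusted p = 0.463).

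**Figure D3:**
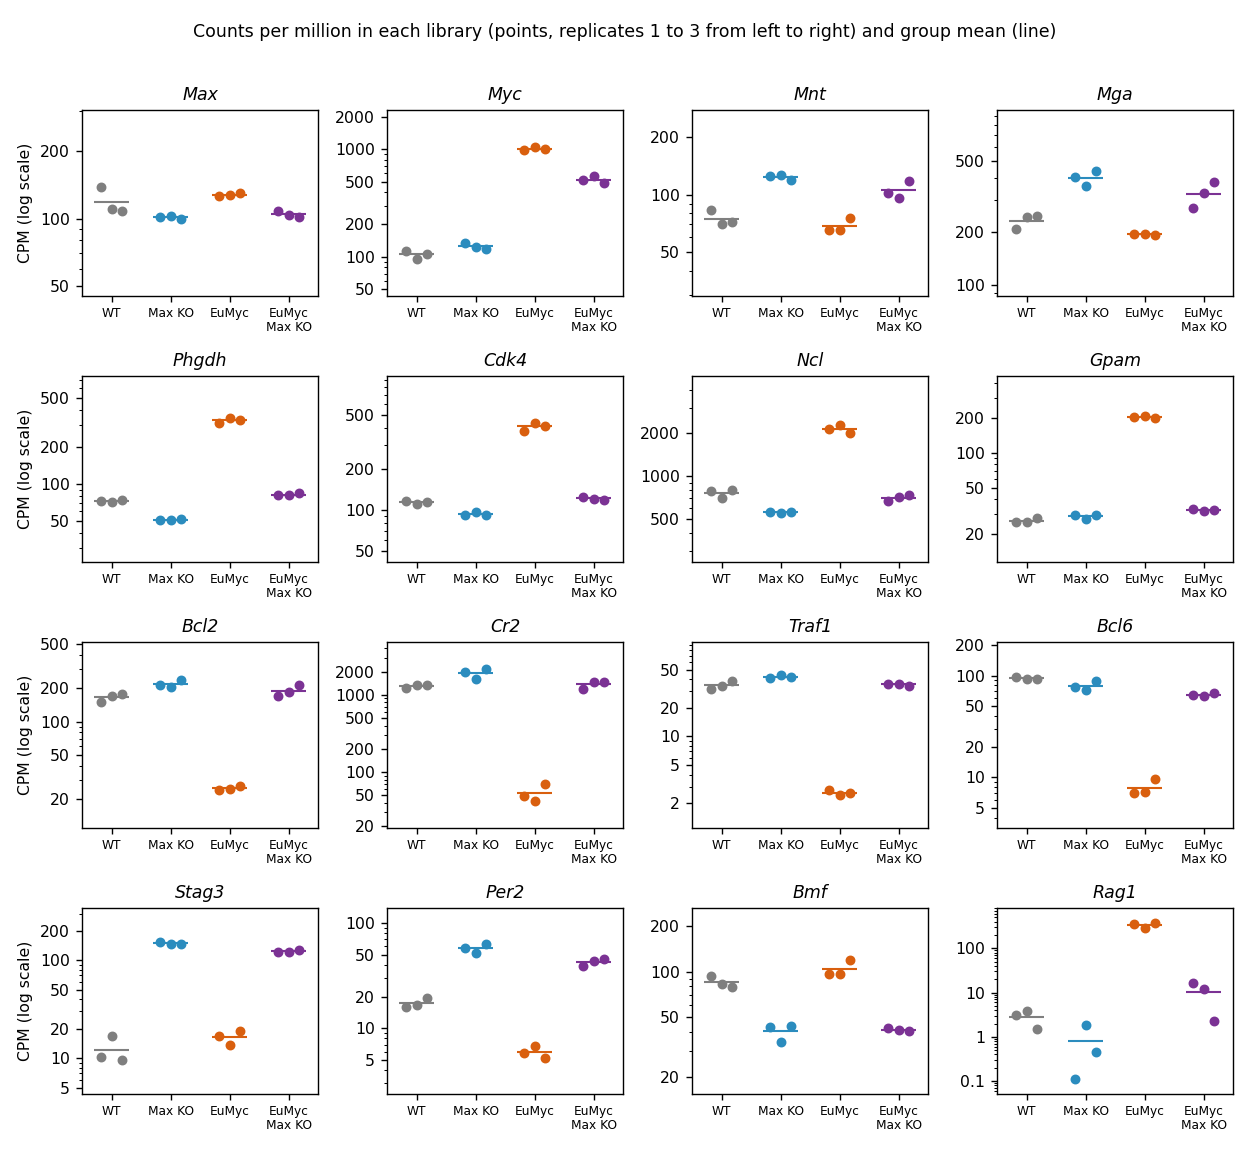
CPM of 16 genes (log axis) in each of the 12 libraries, as points by group with a line at the group mean (n = 3 mice). Bcl2, Cr2, Traf1, Bcl6 and Per2 are lowest in EuMyc, Phgdh, Cdk4, Ncl, Gpam and Rag1 are highest in EuMyc, and Stag3, Mnt and Mga are higher in both Max KO groups than in the group with Max.

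Genes of immature B cell stages fell in part, and most genes of mature B cells rose. Of 29 tested pro-B and pre-B genes 15 fell and 6 rose (median -0.98). Rag1 (chr2:101638282-101649501, minus strand), a subunit of the recombinase of antigen receptor genes, was at 355, 288 and 368 CPM in EuMyc and 16.1, 11.9 and 2.29 CPM in EuMyc Max KO, against 3.15, 3.86 and 1.49 CPM in WT (log2 fold change -5.07, SE 0.591, edgeR adjusted p = 4.56e-05). Rag2 and Igll1, a surrogate light chain gene, both named after their values were seen, were at 38.5, 38.3 and 43.7 CPM in EuMyc and 3.19, 2.9 and 0.104 CPM in EuMyc Max KO and at 26.3, 22.3 and 6.32 CPM in EuMyc and 7.52, 7.89 and 0.884 CPM in EuMyc Max KO. EuMyc Max KO replicate 3 was the lowest library for these 3 genes and close to WT. The transcription factors Myb, which pro-B cells need, and Sox4, which supports early B cells, fell by 2.54 and 2.37 on the log2 scale, with Myb at 397, 403 and 362 CPM in EuMyc and 71.8, 70.5 and 57.1 CPM in EuMyc Max KO. Tcf3, which encodes the E2A proteins of B cell commitment, fell by 1.54 and Vpreb3, a gene of the pre-B receptor family, by 1.61. Without EuMyc Max KO replicates 1 and 2, 20 of 29 fell and 6 rose, and the median was -1.53.

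Of 29 mature follicular genes 26 rose and 1 fell (median 1.89), and of 22 tested marginal zone genes 19 rose and none fell (median 1.76). The summed follicular level was 3259, 2966 and 3878 CPM in EuMyc, 11030.0, 12410.0 and 13620.0 in EuMyc Max KO and 15020.0 to 15050.0 in WT. All 3 EuMyc Max KO libraries lay far above EuMyc and below WT. Cr2 (chr1:195136811-195176716, minus strand), the complement receptor CD21 of mature B cells, rose from 48.6, 41.7 and 69.3 to 1201, 1445 and 1454 CPM (4.68, SE 0.195, edgeR adjusted p = 3.01e-09). Icosl, a ligand by which B cells reach T cell help, rose from 20.8, 17.4 and 29.2 to 256, 313 and 307 CPM (3.7). S1pr3, a sphingosine phosphate receptor of marginal zone B cells, rose from 5.75, 4.73 and 5.54 to 85.7, 73.6 and 102 CPM (4.02). Bank1, a scaffold of B cell receptor signalling, and Cd22, an inhibitory coreceptor, rose by 2.46 and 2.26 log2 units, and Dtx1, a regulator of Notch signalling, by 2.48. In the list of B cell receptor and coreceptor signalling 23 of 30 rose and 1 fell.

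Lineage identity genes changed less. Of 16 B cell identity genes 10 rose and 5 fell (median 0.42), and their summed level was 8276 to 9263 CPM in EuMyc against 11060.0 to 13160.0 in EuMyc Max KO, so the sorted cells carried B cell transcripts in all 6 libraries. Ptprc, whose product CD45 includes the B220 form used for the sort, was at 589, 517 and 636 CPM in EuMyc and 1618, 1722 and 1988 CPM in EuMyc Max KO (1.61, SE 0.0927), so the gate's own gene differed between the groups. Cd79a and Cd79b encode the signalling chains of the B cell receptor and moved apart: Cd79a fell from 898, 864 and 964 to 615, 654 and 758 CPM (-0.43, SE 0.096, edgeR adjusted p = 0.00134), and Cd79b rose from 1010.3, 946 and 1190.2 to 1220.0, 1281 and 1503 CPM (0.35, SE 0.104, edgeR adjusted p = 0.00848). The Cd79a call was lost with replicate 3 as the only EuMyc Max KO library (-0.27, edgeR adjusted p = 0.0721).

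Germinal centre and plasma cell lists were mixed. Of 23 germinal centre genes 12 rose and 6 fell. Bcl6, the master repressor of that stage, rose from 6.96, 7.07 and 9.66 to 63.9, 62.5 and 67.4 CPM (3.03, SE 0.117, edgeR adjusted p = 5.08e-10) but stayed below WT at 97.1, 92.7 and 92.1 CPM. Lmo2 rose from 39.1, 32.8 and 46.7 to 219, 203 and 178 CPM (2.34), while Neil1, a base excision glycosylase, fell from 61.8, 56.1 and 62.6 to 16.4, 15.5 and 16.6 CPM (-1.9). Irf4, which drives both pre-B and plasma cell steps, fell from 401, 369.5 and 377 to 179.8, 194 and 218 CPM (-0.96). Prdm1, the plasma cell repressor BLIMP1, rose from 2.71, 2.34 and 4.28 to 14.2, 14.7 and 18 CPM (2.33), to levels that overlap WT at 10.8, 15.5 and 19.1 CPM.

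Immune signalling and antigen presentation genes were higher as whole lists. Of 30 NF-kB subunits and targets 29 rose and none fell, 26 of them more than 2-fold (median 1.89). Traf1, an NF-kB-induced signalling adaptor, rose from 2.76, 2.45 and 2.56 to 35.6, 35.7 and 33.8 CPM (3.75, SE 0.0986, edgeR adjusted p = 8e-11). Lta, a cytokine that shapes lymphoid tissue, rose from 1.45, 1.49 and 1.99 to 29.1, 33.4 and 31.3 CPM (4.25), Nfkb2, the noncanonical subunit, from 46.6, 46.2 and 54 to 244, 257 and 236 CPM (2.33) and Bcl3, a nuclear cofactor, from 8.66, 6.43 and 9.82 to 55.9, 55.6 and 55.7 CPM (2.75). These genes were even across the 3 EuMyc Max KO libraries and near their WT values, with Nfkb2 at 267, 241 and 228 CPM in WT.

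All 10 tested MHC class II genes rose (median 1.78), with Cd74, the invariant chain, at 2498, 2297 and 3148 CPM in EuMyc and 8573, 8816 and 10116 CPM in EuMyc Max KO (1.79, SE 0.113) and H2-Eb1, a class II beta chain, up by 1.78 on the log2 scale. Of 16 tested MHC class I genes 14 rose and 1 fell, with H2-K1 from 459, 411 and 511 to 1853, 1743 and 1685 CPM (1.94). H2 genes are near-identical to each other, and reads that aligned to several of them were counted for no gene. Of 36 interferon response genes 33 rose and none fell (median 1.41), with Gbp7, an interferon-induced GTPase, from 15.6, 12.5 and 14.3 to 73.5, 70.8 and 71.5 CPM (2.35). With replicate 3 as the only EuMyc Max KO library, 24 of the 36 were called higher, 29 of the 30 NF-kB genes and all 10 class II genes.

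Receptors for homing, cytokines and microbial products rose with them. Counts of members higher were 17 of 19 homing receptors, 18 of 21 cytokine receptors and 13 of 15 genes of Toll-like receptor signalling. Il4ra, an interleukin 4 receptor chain, rose from 63.9, 55.9 and 78.6 to 243, 266 and 287 CPM (2.0) and Tlr7, a sensor of single-stranded RNA, from 17, 11.8 and 16.7 to 84.7, 87.8 and 77.2 CPM (2.45). Of 19 tested immediate early genes 13 rose and 2 fell. Egr1, raised within minutes of receptor signals, was at 13.3, 10.6 and 15.8 CPM in EuMyc and 43.9, 43.9 and 40.9 CPM in EuMyc Max KO (1.7) and at 86.1, 79.5 and 67.3 CPM in WT, above both.

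Markers of other cell types rose beside these groups. Called higher were 22 of 23 tested T cell genes, 12 of 12 for NK cells, 23 of 24 for monocytes and macrophages, 11 of 11 for neutrophils, 13 of 14 for conventional dendritic cells, 14 of 16 for plasmacytoid dendritic cells and 19 of 20 for erythroid cells. Summed levels in EuMyc and EuMyc Max KO were 181 to 206 and 372 to 396 CPM for T cells, and 505 to 637 and 1560.0 to 1647 CPM for plasmacytoid dendritic cells, which carry B220. In WT these sums were 366 to 394 and 1589 to 1651 CPM, so EuMyc was low and EuMyc Max KO near WT for both. The markers Cd3e and Siglech lay far below these sums, which are therefore no measure of cell numbers. In WT Siglech was at 53.8, 95.6 and 90.8 CPM. Of conventional dendritic cell markers, Xcr1 overlapped, at 2.32, 2.82 and 3.19 CPM in EuMyc and 3.79, 3.84 and 2.65 CPM in EuMyc Max KO. Zbtb46 did not, at 0.29, 0.372 and 0.47 CPM in EuMyc and 3.68, 3.29 and 2.29 CPM in EuMyc Max KO. Monocyte and macrophage genes summed to 3368 to 4167 CPM in WT and 5096 to 6936 in Max KO. Csf1r, the receptor of macrophage growth factor, was at 121, 99 and 106 CPM in EuMyc and 919, 738 and 537 CPM in EuMyc Max KO (2.75), Siglech, of plasmacytoid dendritic cells, at 3.87, 5.0 and 4.7 CPM in EuMyc and 55.2, 50.6 and 33.8 CPM in EuMyc Max KO (3.36) and Lck, a kinase of T cells that some B cells express, at 19.3, 22.5 and 18.2 CPM in EuMyc and 88.1, 88.7 and 96.7 CPM in EuMyc Max KO (2.19). The T cell receptor subunit Cd3e was at 0.0483, 0.0532 and 0.261 CPM in EuMyc against 3.84, 5.1 and 4.37 in EuMyc Max KO. Car2, carbonic anhydrase of red cell precursors, was at 88, 63.4 and 86 CPM in EuMyc and 1045, 700.5 and 190.4 CPM in EuMyc Max KO (3.03). With replicate 3 as the only EuMyc Max KO library, 2 of 20 erythroid and 3 of 11 neutrophil genes were called higher, while 22 of 23 T cell genes were. The part of these cells in the rises of MHC, interferon, NF-kB and receptor genes was not tested.

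**Figure D4:**
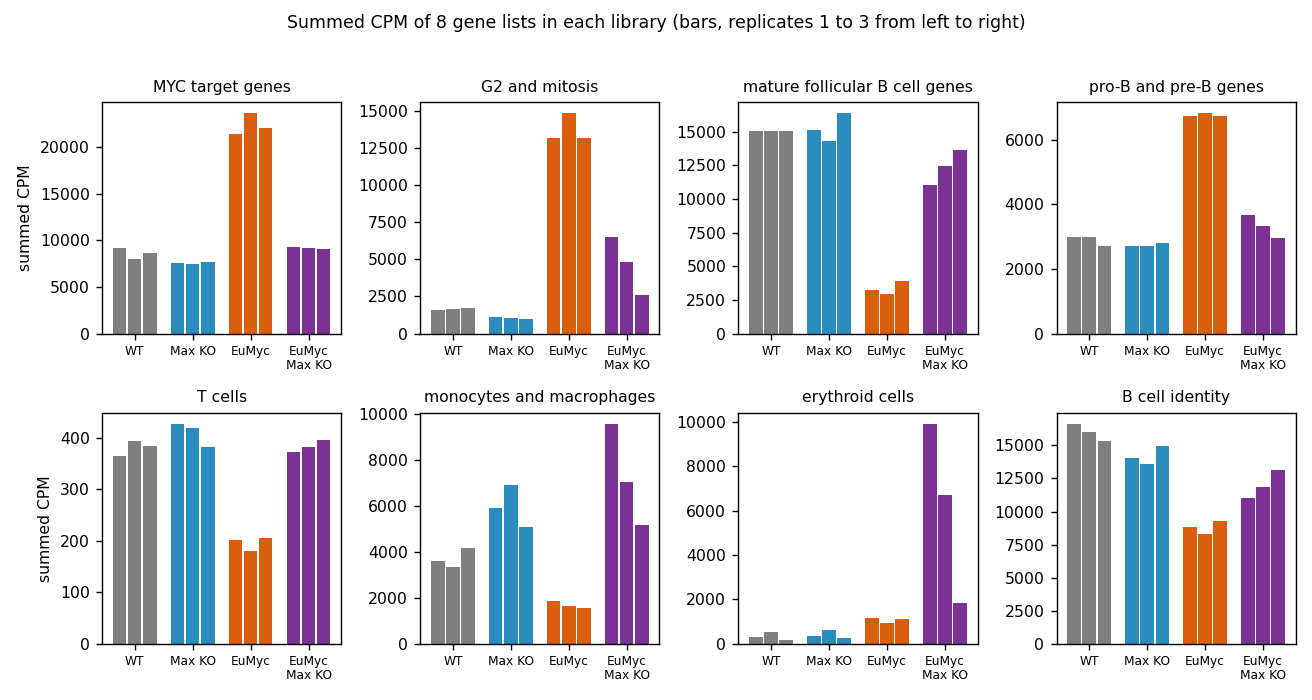
Summed CPM of 8 gene lists in each of the 12 libraries (bars from 0, one bar per mouse, coloured by group). MYC target and cell cycle sums are highest in EuMyc and follicular sums lowest there, and the erythroid sum is highest in EuMyc Max KO replicates 1 and 2 (9909 and 6691 CPM, against 1824 in replicate 3).

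Germline and clock genes included members that changed on Max loss both with and without the transgene. Of 32 germline genes that MGA, MAX and E2F6 are known to silence only 14 passed the filter, of which 6 rose and 1 fell. The other 18 were too low to test, so these counts do not describe the whole list. The filter used all 4 groups, so a gene could pass it through the groups without Max. The share higher, 42.9%, was near the 37.6% of all genes tested, and the share lower, 7.14%, was below their 36.1%. Stag3 (chr5:138280240-138312393, plus strand) was at 16.8, 13.7 and 18.8 CPM in EuMyc and 121, 122 and 129 CPM in EuMyc Max KO, and at 10.3, 16.7 and 9.47 CPM in WT and 155, 146 and 147 in Max KO. Its rise was 2.92 (SE 0.177, edgeR adjusted p = 6.02e-08) with the transgene and 3.62 (SE 0.184) without. Both groups without Max lay above 100 CPM in every library. Smc1b, another meiotic cohesin subunit, rose from 0.145, 0.159 and 0.313 to 2.27, 2.19 and 2.81 CPM (3.52), and Zcwpw1, a reader of histone marks in meiosis, from 30.2, 30.5 and 37.6 to 42.7, 43.1 and 44.2 CPM (0.40). Tdrkh, of the piRNA pathway, was at 6.48, 6.22 and 5.64 CPM in EuMyc and 10.3, 10.4 and 7.9 CPM in EuMyc Max KO (0.64), and with replicate 3 as the only EuMyc Max KO library it did not pass the test (0.36, edgeR adjusted p = 0.223). Brdt, a testis bromodomain gene, fell, at 4.74, 3.83 and 2.82 CPM in EuMyc and 1.14, 1.75 and 1.98 CPM in EuMyc Max KO (-1.22). Of 13 PRC1.6 subunits 9 fell and 2 rose, among them the DNA-binding subunit E2f6, from 51.4, 51.5 and 51.9 to 33.5, 30.6 and 27 CPM (-0.76), and Cbx3, a heterochromatin protein, by 1.32 on the log2 scale.

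Of 16 tested clock genes 9 rose and 3 fell in EuMyc Max KO against EuMyc, and 11 rose and 1 fell in Max KO against WT, where 7.27% of all genes were called higher and 7.74% lower. Clock factors bind E-boxes through CLOCK and BMAL1. Per2, a core repressor of the clock, was at 5.85, 6.86 and 5.22 CPM in EuMyc and 39.1, 43.7 and 46 CPM in EuMyc Max KO, and at 16.1, 16.7 and 19.5 CPM in WT and 57.8, 52 and 63.1 in Max KO. It rose by 2.84 (SE 0.122) with the transgene and by 1.73 (SE 0.113) without. Tef, a clock output factor, was at 39.2, 37.3 and 41.7 CPM in EuMyc and 113, 129 and 135 CPM in EuMyc Max KO, and rose by 1.67 and 1.32 in the 2 backgrounds. Per1 rose by 1.26 and 0.54. Arntl, which encodes BMAL1, fell from 78.5, 85.6 and 86.3 to 26.3, 24.3 and 23.1 CPM (-1.77) and by 0.57 without the transgene. The sources used here do not give the time of day at which the mice were killed, so its part cannot be told apart from genotype.

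For many genes the change on Max loss differed between the 2 backgrounds. The interaction, the log2 fold change in EuMyc cells minus that in normal cells, was called for 7175 genes (55.7%) by edgeR's quasi-likelihood test, 3586 positive and 3589 negative. That share depended on the setting. It was 49.6% without EuMyc replicate 2, 49.4% with DESeq2 and 39% with no filter on low counts. Max KO against WT itself had 1933 called genes, a count that depends on single libraries: it fell to 808 when the first WT library was left out and to 1206 when the third was, and to 889 and 1060 on leaving out Max KO replicate 1 or 2. The 2 comparisons share no library, and with all libraries 1653 genes were called in both. That is 85.5% of the calls in normal cells and 17.4% of those in EuMyc cells. Of all tested genes, 73.7% were called in EuMyc cells, and in normal cells 7.27% were called higher and 7.74% lower. Both overlap shares stood not far above this background, so the number of shared calls says little by itself. Of the 1653 genes, 1423 moved in the same direction and 230 in opposite directions. The interaction shares its EuMyc and EuMyc Max KO libraries with the changes described so far, so its values stand beside them and are not a separate test of them. The median absolute log2 fold change of all genes was 0.65 in EuMyc cells and 0.18 in normal cells.

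**Figure D5:**
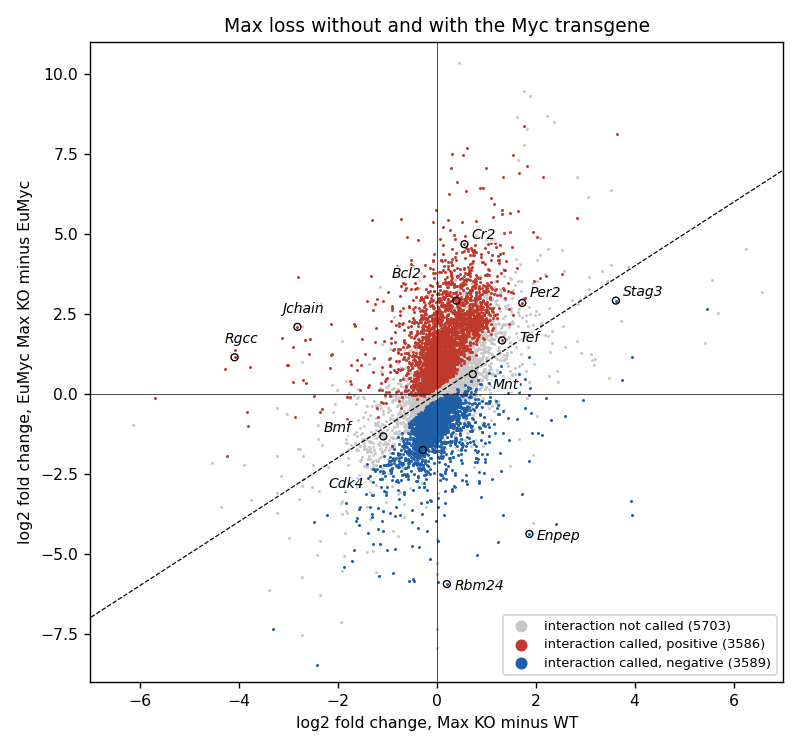
Log2 fold change of Max KO over WT against that of EuMyc Max KO over EuMyc for the 12878 genes tested, coloured by the call of the interaction (3586 positive, 3589 negative, others not called), with a dashed line where both changes are equal. The cloud is much taller than wide, with Mnt, Bmf and Tef near the dashed line, Stag3 just below it, and Rgcc, Jchain and Enpep far from it.

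MYC target, mature B cell and NF-kB genes changed less in normal cells. The median log2 fold change of MYC targets was -0.18 in Max KO against WT, with 28 of 71 lower (14 when WT replicate 1 was left out, and 16 and 18 when Max KO replicate 1 or 2 was), and the interaction was called negative for 65 of the 71. For Phgdh the change was -2.01 in EuMyc cells and -0.50 in normal cells, and for Ldha -1.66 and 0.08. Gpam, the first enzyme of glycerolipid synthesis, was at 202, 209 and 199 CPM in EuMyc and 33.3, 31.7 and 32.4 CPM in EuMyc Max KO (-2.65, SE 0.0582, edgeR adjusted p = 2.59e-11) and did not pass the test in normal cells (0.13). Its interaction was -2.78. Mature follicular genes had a median of 0.02 in normal cells, with a sign that changed with the setting, and a positive interaction for 28 of 29. NF-kB genes had a median of 0.17 in normal cells and a positive interaction for 29 of 30. Cytosolic ribosomal protein genes were also called in normal cells, 58 of 79 lower (median -0.35), and 32 of these 58 also had a negative interaction. Only 25 of the 79 were called lower on leaving out replicate 1 of either WT or Max KO, and 36 on leaving out WT replicate 3.

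For some genes no difference between the backgrounds was detected. The interaction was -0.11 (SE 0.126) for Mnt, -0.04 (SE 0.156) for Mga and -0.25 (SE 0.152) for Bmf, and none of the 3 passed the test (edgeR adjusted p = 0.47, 0.846 and 0.177), which does not show that the effects are equal. Stag3 rose slightly less with the transgene, with an interaction of -0.70 (SE 0.242, edgeR adjusted p = 0.0291).

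Some of the named genes were called in opposite directions in the 2 backgrounds. Egr1 rose with the transgene (1.7) and fell without it (-0.67), and Sesn1 (1.15 and -0.21) and Cd79b (0.35 and -0.36) did the same. Myc was lower with the transgene (-0.95) and higher without it (0.26), as was Mxd4 (-0.45 and 0.31). In normal cells the call of Egr1 held in all 20 alternatives, that of Mxd4 in 19, of Sesn1 in 14, of Cd79b in 12 and of Myc in 8, the last lost also with the replicate block (edgeR adjusted p = 0.0611), and none of these changed sign. Rgcc, a regulator of the cell cycle, was at 5.32, 4.15 and 6.84 CPM in EuMyc and 20.4, 10.1 and 5.56 CPM in EuMyc Max KO, and its call (1.14, edgeR adjusted p = 0.0307) was lost without EuMyc Max KO replicate 1 (edgeR adjusted p = 0.2) and without EuMyc replicate 1 or 2. Jchain, the joining chain of secreted IgM and IgA, ranged from 48.1 to 188 CPM in the EuMyc libraries and from 266 to 664 in EuMyc Max KO, and its call (2.1, edgeR adjusted p = 0.0161) was lost without EuMyc replicate 1 (edgeR adjusted p = 0.0562), EuMyc replicate 2 (0.0552) or EuMyc Max KO replicate 3 (0.066). The interactions of Rgcc (5.23) and Jchain (4.91) exceeded their rises in EuMyc cells, so both had a fitted fall in normal cells. How far that fall depends on single libraries was not checked. Enpep, an aminopeptidase of early B cells known as BP-1, was at 113, 60.9 and 67.8 CPM in EuMyc and 4.0, 3.45 and 4.11 CPM in EuMyc Max KO (-4.38) and rose in Max KO against WT by 1.87, a call kept in 14 of 20 alternatives.

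The genes at either end of the fold changes, 15 each way, included several that one of the groups almost lacked. Ackr3, a scavenging chemokine receptor of marginal zone B cells, rose from 1.11, 0.585 and 2.19 to 95.6, 64.5 and 114 CPM (6.13, SE 0.455). Il9r, a cytokine receptor, rose from 3.92, 6.33 and 9.66 to 209.5, 226 and 222 CPM (5.05) and also without the transgene, from 70.7, 94 and 92.1 to 305, 357 and 334 CPM. Nebl, an actin-binding protein, rose from 0.145, 0.372 and 0.261 to 12.8, 14.1 and 21.5 CPM (5.94), Ccl22, a chemokine that draws T cells, from 0.0484, 0.266 and 0.366 to 11.6, 9.1 and 13.3 CPM (5.63) and Ptpn14, a tyrosine phosphatase, from 6.62, 5.79 and 3.45 to 175, 179 and 141 CPM (4.96). At the other end, Ltbp4, a matrix protein that binds latent TGF-beta, was at 114, 99.6 and 102 CPM in EuMyc and 2.38, 1.7 and 1.92 CPM in EuMyc Max KO (-5.71, SE 0.189, edgeR adjusted p = 2.91e-10). Tmem132e, a membrane protein of neural tissues, was at 99.9, 97.6 and 92.9 CPM in EuMyc and 0.866, 0.493 and 0.416 CPM in EuMyc Max KO. Rbm24, a splicing factor of muscle, was at 51.3, 47 and 55.8 CPM in EuMyc and 1.51, 0.713 and 0.26 CPM in EuMyc Max KO, and Shank2, a scaffold of synapses, at 16.9, 13.7 and 15.1 CPM in EuMyc and 0, 0.11 and 0 CPM in EuMyc Max KO. All 4 were low in WT too, where Tmem132e was at 1.55, 1.76 and 0.357 CPM and Ltbp4 at 4.13, 2.44 and 2.44 CPM, so EuMyc libraries were the high ones. The smallest p-values included those of Gsn, the actin-severing protein gelsolin, which rose from 16, 16.4 and 18.3 to 117, 133 and 139.6 CPM (2.94, SE 0.0872, edgeR adjusted p = 2.24e-10), and Bcl7a, a chromatin remodelling subunit, which fell from 668, 659 and 634 to 122, 118 and 118 CPM (-2.45). Xist had the largest rise by the rule, but its level is high in EuMyc Max KO replicates 1 and 2 only. Its call was lost with the replicate block (edgeR adjusted p = 0.0584), without any 1 EuMyc library (0.0978 to 0.101) and without EuMyc Max KO replicate 1 or 2 (0.0622 and 0.0655), and with replicate 3 alone its log2 fold change was 0.33 (edgeR adjusted p = 0.979).

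Set against WT, the lists show how far EuMyc Max KO libraries stood from normal cells. These values share libraries with the changes above and are given beside them. EuMyc against WT had 71.6% of genes called and EuMyc Max KO against WT 27.8%, but the latter was 18.2% without EuMyc Max KO replicate 1 and 6.95% with replicate 3 as the only EuMyc Max KO library. The median of the MYC target genes was 1.24 in EuMyc against WT and 0.05 in EuMyc Max KO against WT. The same 2 medians were 0.76 and -0.06 for ribosome biogenesis, -1.96 and -0.08 for NF-kB genes and -2.3 and -0.36 for follicular genes. Leaving aside cell type markers, G2 and mitosis genes stayed furthest from WT among the lists in this paragraph, at 3.42 and 1.61. The marker lists of erythroid cells and neutrophils stood further off in EuMyc Max KO against WT, with medians of 5.35 and 3.85. S phase genes stood at 2.36 and 0.53, and pro-B and pre-B genes at 1.35 and 0.59.

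The CACGTG E-box was slightly more frequent in promoters of genes called lower than of genes called higher, with no test made. RefSeq promoters of 3602 of the 4649 genes called lower and 3699 of the 4845 called higher were matched by symbol. CACGTG was present in 10.4% of the promoters of genes called lower, 9.52% of those called higher, 9.92% of those not called and 7.15% of all 32851 promoters of the same length. Among genes called and changed more than 2-fold the shares were 9.73% for those lower and 7.52% for those higher. Among lists it was in 23 of 78 promoters of MYC target genes (29.5%), 15 of 95 of ribosome biogenesis (15.8%), 6 of 19 of clock genes (31.6%) and 4 of 12 of the network (33.3%). The window covers only 300 bases, and promoters of the genes called lower were also richer in CpG, with a mean of 22.6 CpG against 18 in those called higher.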

How the data were processed

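RNA from B220+ splenocytes of 12 mice was sequenced, 3 individual mice for each of 4 genotypes, per the labels. The authors deposited a table of raw counts for each mouse, whole numbers of reads per gene symbol without normalization. Per the submitters' processing notes, bcl2fastq 1.8.4, TopHat2 2.1.0 and HTSeq 0.6.1 were used with mm10. The sources used here do not give the annotation, the strand setting or the read length, so overlapping, antisense and near-identical genes are uncertain. The 5 summary rows per table name no gene and stayed out of library sizes and tests. They held 34.9% to 37.6% of the reads in the EuMyc tables and 42.0% to 45.4% in EuMyc Max KO.

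Groups follow the genotype labels, and titles give the replicate numbers. Same-numbered WT and Max KO libraries deviated together (correlations 0.223, 0.378 and 0.101), and replicate 2 of both carries Y-linked reads. Those numbers may therefore pair the samples, but the labels state no pairing. WT replicate 3 correlated almost as well with Max KO replicate 1 (0.0905), so a pairing is not established, and the main fit holds no replicate block. No 2 libraries were identical, and within groups every pair differed beyond sampling noise (chi-square per degree of freedom 7.81 to 69.6). In R 4.3.3 with edgeR 4.0.16 and limma 3.58.1, filterByExpr on the 4 groups left 12878 of 24421 genes. A quasi-likelihood model (robust, TMM scaling, 8 residual degrees of freedom) was fitted to all 12 libraries, with 5 contrasts, and p-values were adjusted over the 12878 genes by Benjamini-Hochberg with a threshold of 0.05. SE is the absolute log2 fold change divided by the square root of F. The smallest p of an exact two-sided permutation test is 0.1 at 3 mice against 3, and the calls therefore depend on the pooled spread. In simulated counts for this comparison (12668 genes), 200 genes were changed and each gene had the same spread in all groups. Of genes changed 1.5-, 2- and 4-fold, 59.7%, 79.1% and 100% were recovered, and 15 of 174 calls were false. Far more genes were called in the data, and the EuMyc Max KO libraries were less alike, so these shares do not carry over to the calls made here.

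The members and the 62 gene lists, which share genes, were chosen with earlier results of these data known. Named genes are Max, Myc and the tested network genes; the 15 highest and 15 lowest log2 fold changes and the 10 smallest p among called genes with a mean CPM of at least 5 and groups that do not overlap, without receptor segments, unnamed models, small RNAs and haemoglobins; up to 5 called members per list by p, or 2 by CPM where none was called; 8 and 8 for the interaction; and B cell and MYC anchors. The text gives a part of them, and some are not reported here. Alternatives were RLE, upper-quartile or total scaling, other filters, DESeq2 1.42.0, a replicate block, only 6 libraries, and each library left out. Coordinates are GENCODE vM21 on mm10 (23384 of 24421 symbols matched, 95.8%), and promoters are RefSeq's. Python 3.11.15 was used for lists and plots.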

Additional observations from a re-analysis of the deposited data

Results flagged for a closer look

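Of the 125 genes considered for the text, 108 had a change on Max loss that differed between the EuMyc and the normal background by edgeR's interaction term at an adjusted p under 0.05, against 55.7% of all tested genes. The values are differences of log2 fold changes (EuMyc Max KO minus EuMyc, less Max KO minus WT): 57 were positive and 51 negative. Many of these genes were chosen for their size in the first comparison or in the interaction itself, so their number is a description. Among MAX network and germline genes the interaction was positive for Mycl 2.68, Mxd1 1.75 and Smc1b 2.31, and negative for Myc -1.21, Mxd4 -0.76, Stag3 -0.70, E2f6 -1.01 and Cbx3 -1.18.

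For growth and protein synthesis genes it was negative in each case: Pa2g4 -1.34, Ncl -1.15, Nolc1 -1.3, Rpl28 -0.77, Mrpl12 -1.4, Polr1b -1.17, Eif3b -1.14, Kars -0.94, Snrpd1 -1.56, Cycs -1.18, Hspd1 -1.52 and Psme4 -1.67. Among metabolic genes the interaction was positive for Scd1 2.03, Sat1 0.79 and Slc7a7 1.61, and negative for Phgdh -1.5, Psat1 -1.78, Shmt2 -1.39, Ctps -1.69, Gpam -2.78, Elovl6 -3.22, Ldha -1.74, Srm -1.52 and Slc7a6 -0.94. All lysosomal and ER genes in this set had a positive interaction: Ctss 1.7, Atp6v0a1 1.98 and Pdia4 1.07. Among cell cycle and chromatin genes the interaction was positive for Ccnd2 1.17, Cdkn1b 0.56, Rbl2 0.60 and Ezh1 0.94, and negative for Cdk4 -1.47, Hells -1.91, Cdca7 -2.23, Mad2l1 -1.31, Cks1b -1.45, Cdkn2c -1.32, Cdkn1c -3.22, Rbl1 -1.14, Ezh2 -2.09 and Bcl7a -2.28. Among repair, p53 and cell death genes the interaction was positive for Sesn1 1.37, Bcl2 2.52, Bcl2a1b 2.46, Bcl2a1d 3.26, Mcl1 0.82 and Bid 0.25, and negative for Xrcc6 -2.11, Lig4 -2.2 and Trp53 -0.63.

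Among genes of B cell stages the interaction was positive for Cr2 4.12, Icosl 3.41, Bank1 2.35, Cd22 2.22, S1pr3 4.26, Dtx1 1.9, Bcl6 3.27, Lmo2 2.62, Prdm1 2.66, Rgcc 5.23, Jchain 4.91, Cd79a 0.79, Cd79b 0.71 and Ptprc 1.57, and negative for Myb -2.65, Sox4 -2.67, Tcf3 -1.42, Vpreb3 -1.35, Enpep -6.26, Neil1 -1.16 and Irf4 -0.70. All immune signalling and receptor genes in this set had a positive interaction: Traf1 3.46, Nfkb2 2.02, Lta 3.67, Bcl3 2.57, Cd74 1.72, H2-Eb1 1.74, H2-K1 1.49, Gbp7 1.82, Egr1 2.36, Tlr7 2.35, Il4ra 2.2, Il9r 3.1, Ackr3 5.04 and Ccl22 4.31. Among clock genes the interaction was positive for Per2 1.12, Tef 0.35 and Per1 0.71, and negative for Arntl -1.19. Among genes with the largest changes the interaction was positive for Ptpn14 4.16, Nebl 4.78 and Gsn 2.57, and negative for Shank2 -6.06, Tmem132e -4.03, Rbm24 -6.16 and Ltbp4 -4.54. All markers of other cell types in this set had a positive interaction: Lck 1.55, Csf1r 1.88, Siglech 2.86 and Car2 3.22. The fitted values of Shank2, Cdkn1c and Tmem132e rest on libraries with few or no reads and depend on the prior count. Elovl6, which lengthens fatty acids, and Scd1, which desaturates them, took opposite signs within 1 pathway.

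Outside the gene counts, reads that fell in no annotated gene made up 16.9% ± 1.78 (SD, n = 3) of the reads in the EuMyc Max KO tables and 13.1% ± 0.573 in those of EuMyc. WT tables held 18.8% ± 1.84.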

How the results depend on the processing

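The number of genes called between EuMyc Max KO and EuMyc (9494) stayed within 1.5 times under every alternative run: 9488 with RLE, 9465 with library totals, 9429 with upper-quartile factors, 9693 with no filter, 8995 at a mean CPM of at least 1, 9027 with only the 6 libraries and 9648 with DESeq2. Leaving out each EuMyc or EuMyc Max KO library in turn gave 8913 to 9405, and the interaction (7175) gave 6504 to 7475 when any of the 12 libraries was left out. Without EuMyc Max KO replicates 1 and 2, chosen after seeing the data, the counts were 8244 and 6345. Library totals raised the share of called genes that were higher from 51.0% to 57.8%. No pairing of EuMyc and EuMyc Max KO samples by replicate number was seen. Deviations of same-numbered libraries correlated at 0.0986, -0.0209 and 0.173, and not every library correlated best with its own number. These values cannot exclude a pairing, since each group holds 3 libraries and EuMyc Max KO replicate 3 stood apart. With the replicate block 9440 genes and 7116 interactions were called, and 1738 genes in Max KO against WT, where the numbers may pair the samples. Of the 17 genes checked there the block lost only Myc. The promoter comparison turned with the motif: genes called lower held CACGTG 0.933 percentage points more often than those called higher, but for the looser CANNTG the difference was -7.71 percentage points, at 60.5% against 68.2% of promoters; the cause was not tested. Of 125 genes 118 were called, 11 changed call in some of 15 alternatives (Mxd1, Mxi1, Mxd3, Xist, Odc1, Cdkn1b, Cdkn1a, Cd79a, Tdrkh, Rgcc and Jchain) and none changed direction. The median log2 fold change changed sign in some setting for the network, amino acid transporter, unfolded protein response, p53 and plasma cell lists, whose medians lay near 0.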

Other observations

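Several metabolic groups held genes that moved in both directions, as did all tested genes, of which 37.6% were called higher and 36.1% lower. The amino acid transporter, ER and ATF4 counts given here lay near these shares, so they do not set those groups apart. Of 31 genes of cholesterol and fatty acid synthesis 13 were lower and 7 higher in EuMyc Max KO than in EuMyc. Elovl6 was at 196, 156 and 197 CPM in EuMyc and 20.6, 19.6 and 25.9 CPM in EuMyc Max KO (-3.05, SE 0.151, edgeR adjusted p = 5.55e-09), while Scd1 was at 229, 196 and 247 CPM in EuMyc and 729, 781 and 983 CPM in EuMyc Max KO (1.89, SE 0.115, edgeR adjusted p = 1.4e-08), and for both genes the EuMyc Max KO libraries lay nearer to WT (13, 15.9 and 17.2 CPM for Elovl6 and 891, 959.8 and 990.2 for Scd1). Of 16 amino acid transporters 7 were higher and 6 lower, with Slc7a7, a transporter of cationic amino acids that macrophages express, at 13.9, 14.4 and 15.1 CPM in EuMyc and 91.4, 64.7 and 54.1 CPM in EuMyc Max KO and its relative Slc7a6 at 98.8, 102 and 95.9 CPM in EuMyc and 54.7, 58.5 and 62.2 CPM in EuMyc Max KO. Of 24 ER chaperone and unfolded protein response genes 10 were higher and 7 lower, with Pdia4, a disulfide isomerase, at 227, 242 and 252 CPM in EuMyc and 568, 612 and 583 CPM in EuMyc Max KO. In the ATF4 list 6 of 16 tested genes were higher and 5 lower, and among chromatin modifiers 8 of 17 were higher and 9 lower. Of 33 replication-dependent histone genes only 12 passed the filter, and 3 of them were lower. The proliferation marker Mki67, named after its values were seen, was at 1880.0, 2079 and 1728 CPM in EuMyc and 1402, 1079 and 414 CPM in EuMyc Max KO.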
